A study of Mus musculus with 6 samples.

Results

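The genes described here carry tryptophan into cells, charge it onto its tRNA, break it down along the kynurenine pathway, or degrade the amines made from it. They were taken by symbol as the amino acid transporter genes Slc6a19, Slc7a5 and Slc3a2, the kynurenine pathway genes Ido1, Afmid, Kmo and Kynu, the tryptophanyl-tRNA synthetase gene Wars, and the monoamine oxidase genes Maoa and Maob. All 10 were found among the 52550 Ensembl gene identifiers listed for each library. The libraries came from epithelial cells isolated from the colon of adult male Apc Min/+ mice, which carry a truncating mutation in a copy of the tumour suppressor gene Apc and develop intestinal adenomas. All 6 libraries share that genotype. The mice, of 5 to 6 weeks, were gavaged every other day with vehicle (2% Tween 80, the control group) or with atorvastatin at 20 mg/kg. The labels do not state what the atorvastatin was given in. Atorvastatin is a statin, which inhibits HMG-CoA reductase in cholesterol synthesis. Each group had 3 libraries, and nothing in the labels says whether each came from its own animal, so the p-values measure the spread between libraries, which may be partly technical. The series title links statins to tryptophan breakdown products of the microbiota in colorectal cancer. The host genes that handle tryptophan were therefore compared between the atorvastatin and control groups.

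Tryptophan is an essential amino acid. In the intestine it can be absorbed, built into protein, converted to serotonin in enteroendocrine cells, oxidised to kynurenine and onward to NAD precursors, or turned into indoles by bacteria. IDO1 opens the kynurenine pathway and is induced by interferon gamma, and monoamine oxidases in the outer mitochondrial membrane remove serotonin and tryptamine.

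Values are FPKM, fragments counted per kilobase of gene and scaled to the mapped total, so that genes can be compared per length; the unit was read from the values because the files do not name it. FPKM carries no read total, so the depth is unknown, and the replicate spread is the sole guide to the precision of low values. Between 11456 and 11655 genes reached 1 FPKM per library, with summed FPKM of 407857 to 430832. The epithelial markers Epcam, Krt8, Krt20, Cdh1 and Vil1 summed to 4031 to 4252 FPKM in control and 3862 to 4017 FPKM with atorvastatin, against 0.538 to 0.831 and 0.48 to 0.63 FPKM for 5 stromal markers; the defining markers of the labelled cell type were thus present. Epcam itself was at 555 ± 18 and 510 ± 28.5 FPKM in control and atorvastatin (SD, n = 3 each).

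The genes spanned a wide range of abundance, and none passed the test for a change with atorvastatin. Maoa was by far the most abundant at a mean of 263 FPKM, and Kmo and Kynu were barely detected, at 0.0252 and 0.0161 FPKM. A gene was tested if it reached 1 FPKM in at least 3 libraries, which held for 6 of the 10: Slc7a5, Slc3a2, Afmid, Wars, Maoa and Maob. limma, fitted to log2(FPKM + 1) of 11644 genes, called 0 of these 6 at a Benjamini-Hochberg adjusted p under 0.05, where it called 0.404% of all tested genes (0.155% higher and 0.249% lower). At an unadjusted p under 0.05 the count was also 0 of 6, beside 12.0% of all tested genes. limma without its trend and robust options also called 0. The 6 fold changes were 2 positive and 4 negative, with a median of -0.06 on the log2 scale, beside 0.02 over all tested genes. With a list this short and a background this low, a count of 0 says little about the group as a whole, and the intervals below carry the result.

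**Figure D1:**
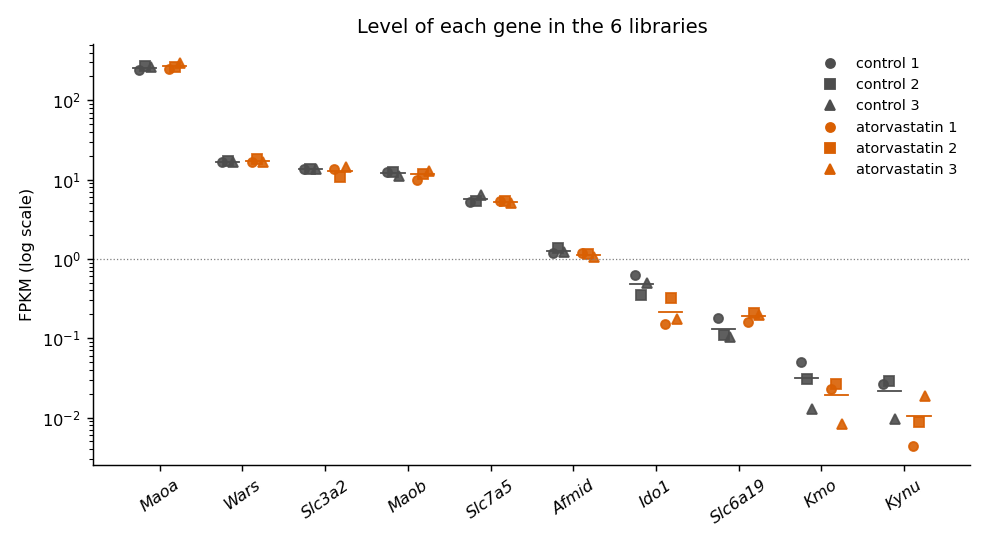
FPKM of the 10 genes in each library on a log axis, ordered by mean level, with control in grey, atorvastatin in orange, a marker shape for each replicate and a bar at each group mean; the dotted line is 1 FPKM. Levels fall from 263 FPKM for Maoa to 0.0161 FPKM for Kynu, and the groups lie apart for Ido1 and narrowly for Afmid.

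The order of the levels was Maoa, Wars, Slc3a2, Maob, Slc7a5, Afmid, Ido1, Slc6a19, Kmo and Kynu. Neighbours in this order had ranges over the 6 libraries that did not overlap, except Slc3a2 and Maob, Ido1 and Slc6a19, and Kmo and Kynu. Maoa ranked 111 among the 28981 genes with a mean above 0, and Wars, Slc3a2 and Maob ranked 2501, 3172 and 3514.

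A pair of promoter windows is shown because 1 belongs to the most abundant gene and the other bears on how the level of Afmid can be read. Both are RefSeq windows of GRCm38.p6, from 250 bases before to 50 bases after the gene start, 5′ to 3′. In the Maoa window (chrX:16619448-16619747, plus strand) capitals mark the GC box core, GGGCGG on either strand. In the Afmid window (chr11:117825669-117825968, plus strand) capitals mark the 45 bases that lie in annotated exons of both Afmid and Tk1, a thymidine kinase gene on the opposite strand.
Maoa: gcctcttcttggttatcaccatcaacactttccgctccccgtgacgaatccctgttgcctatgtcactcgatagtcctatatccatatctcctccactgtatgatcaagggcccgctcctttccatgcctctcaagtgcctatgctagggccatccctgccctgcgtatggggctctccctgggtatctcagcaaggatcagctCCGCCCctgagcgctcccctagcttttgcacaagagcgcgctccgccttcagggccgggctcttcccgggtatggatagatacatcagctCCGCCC
Afmid: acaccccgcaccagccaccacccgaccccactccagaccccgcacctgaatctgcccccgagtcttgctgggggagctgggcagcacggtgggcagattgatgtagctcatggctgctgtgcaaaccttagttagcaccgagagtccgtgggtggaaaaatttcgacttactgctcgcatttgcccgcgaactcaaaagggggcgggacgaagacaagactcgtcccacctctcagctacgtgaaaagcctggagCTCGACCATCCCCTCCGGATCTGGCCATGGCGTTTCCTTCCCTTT

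The promoter table held 5 of the 10 genes (Afmid, Kmo, Maoa, Slc3a2 and Slc6a19). None of these 5 windows held GAAANNGAA (the core of an interferon-stimulated response element), TTCNNNGAA (a gamma-activated site), TGATGNAA (the core of an amino acid response element) or GCGTG (the core of a xenobiotic response element), searched on both strands. Of all 32851 windows, these motifs were in 8.56%, 8.30%, 3.97% and 32.4%. The GAAANNGAA and TTCNNNGAA patterns share letters and can overlap. The GC box core, chosen after the values were seen, was found 2 times each for Maoa and Slc3a2 and 1 time for Afmid, and was in 35.7% of all windows. A match or its absence describes these letters only.

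Among the transporters, the LAT1 pair was expressed and the apical transporter was nearly absent. Slc7a5 encodes the catalytic chain of LAT1, an exchanger of large neutral amino acids including tryptophan (ENSMUSG00000040010, chromosome 8, 121881150 to 121907694, minus strand). It was at 5.19, 5.37 and 6.45 FPKM in control, against 5.31, 5.33 and 5.13 FPKM with atorvastatin. The groups overlapped, and control replicate 3 stood above the other 5 libraries. The log2 fold change was -0.09 ± 0.08 (SE; 95% interval -0.27 to 0.10, limma adjusted p = 0.736).

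Slc3a2 encodes the heavy chain 4F2hc, which carries LAT1 to the plasma membrane and also pairs with other light chains (ENSMUSG00000010095, chromosome 19, 8706882 to 8723369, minus strand). Its level was 13.7, 13.4 and 13.5 FPKM in control, against 13.7, 10.7 and 14.2 FPKM with atorvastatin. The single low library was atorvastatin replicate 2, and the other 5 lay within a narrow band. The log2 fold change was -0.07 ± 0.10 (95% interval -0.30 to 0.16, limma adjusted p = 0.83), and without atorvastatin replicate 2 it was 0.04. The heavy chain exceeded the light chain in every library, by a ratio of FPKM of 2.01 to 2.77.

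Slc6a19 encodes B0AT1, the sodium-dependent neutral amino acid transporter of the apical membrane, best known from the small intestine and kidney (ENSMUSG00000021565, chromosome 13, 73679745 to 73704865, minus strand). It was at 0.18, 0.11 and 0.103 FPKM in control, against 0.159, 0.21 and 0.198 FPKM with atorvastatin, below the filter in every library and overlapping between groups. The exact two-sided permutation p was 0.2, where 3 libraries against 3 cannot give less than 0.1. Cltrn, which encodes collectrin, a partner that brings B0AT1 to the surface, was listed at 0 in all 6 libraries.

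The wider list of 10 transporters and partners had 5 tested genes, with 0 called higher and 0 lower by limma, and 0 at an unadjusted p under 0.05. Its median log2 fold change was -0.06, and 0.04 without atorvastatin replicate 2. The most abundant was Slc6a14, which encodes a broad sodium- and chloride-dependent transporter of neutral and cationic amino acids. It was at 249, 303 and 308 FPKM in control, against 277, 271 and 275 FPKM with atorvastatin (log2 fold change -0.06, 95% interval -0.26 to 0.15). Its FPKM was 46.5 to 55.2 times the sum of Slc6a19 and Slc7a5 in each library. Slc7a8, the light chain of the related exchanger LAT2, was at 1.88 ± 0.13 and 1.95 ± 0.09 FPKM, and Slc36a4, a transporter that accepts tryptophan, at 1.72 ± 0.21 and 1.85 ± 0.11 FPKM. Slc16a10, which encodes TAT1, an exporter of aromatic amino acids, was at 0.916, 0.902 and 0.855 FPKM in control, against 1.09, 0.95 and 1.04 FPKM with atorvastatin, below the filter but higher in every atorvastatin library. Among genes under the filter and above 0 in every library, 14.1% lay apart in either direction. In limma's fit without a filter its unadjusted p was 0.137 and its adjusted p 0.744.

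Several steps of the kynurenine pathway were near or below detection in these isolates. Of the 16 genes on the list of the kynurenine pathway and NAD synthesis, 8 stayed under 0.2 FPKM in every library. Of its 6 tested genes limma called 0 higher and 0 lower, and 1 passed an unadjusted p under 0.05, beside 12.0% of all tested genes.

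Ido1 encodes indoleamine 2,3-dioxygenase, which opens the ring of tryptophan in the rate-limiting step (ENSMUSG00000031551, chromosome 8, 24584136 to 24597009, minus strand). It was at 0.623, 0.346 and 0.491 FPKM in control, against 0.153, 0.321 and 0.177 FPKM with atorvastatin. Every atorvastatin library lay below every control library, with a gap of 0.346 to 0.321 FPKM between the nearest ones. The mean with atorvastatin was 0.445 times that of control. The gene was below the filter in all 6 libraries, the exact two-sided permutation p was 0.1, the smallest that 3 against 3 can give, and in limma's fit without a filter the unadjusted p was 0.0216 and the adjusted p 0.543. Among the 8184 genes under the filter and above 0 in every library, 6.40% lay apart in this direction and 14.1% in either, so such a gap was not rare. Ido1 thus had a lower level in these atorvastatin libraries without passing the test.

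The other dioxygenases that can open the pathway were lower still. Ido2 ranged from 0 to 0.0148 FPKM, and Tdo2, the liver enzyme, was at 0.127 ± 0.043 and 0.115 ± 0.065 FPKM in control and atorvastatin.

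Afmid encodes kynurenine formamidase, which releases kynurenine from its formyl precursor (ENSMUSG00000017718, chromosome 11, 117825924 to 117839908, plus strand). It was the only pathway enzyme among the 10 genes to pass the filter, at 1.18, 1.39 and 1.23 FPKM in control, against 1.17, 1.16 and 1.05 FPKM with atorvastatin. The groups lay apart by the distance between 1.18 and 1.17 FPKM, as in 6.05% of tested genes in this direction and 18.1% in either. The log2 fold change was -0.09 ± 0.07 (95% interval -0.26 to 0.08, limma adjusted p = 0.704). At so low a level it depends on the added 1: the fold of FPKM + 1 was 0.94, and the ratio of mean FPKM was 0.891. With a pseudocount of 0.1 the log2 fold change was -0.15, also not called. The annotated exons of Afmid share 44.2% of their bases with Gm20708, a gene model on the same strand listed at 3.65 and 3.82 FPKM in control and atorvastatin. They share 83 bases with Tk1, of which 45 are the capitals above. Tk1 was at 3.23, 3.18 and 3.46 FPKM in control, against 5.04, 6.29 and 4.65 FPKM with atorvastatin, without overlap (log2 fold change 0.55, limma adjusted p = 0.0793). The strand setting of the counting is not given in the sources used here, so reads from these overlaps cannot be assigned and the level of Afmid is uncertain.

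Kmo encodes kynurenine 3-monooxygenase, which directs kynurenine toward quinolinic acid and NAD (ENSMUSG00000039783, chromosome 1, 175620381 to 175662116, plus strand). Its values ran from 0.0127 to 0.0506 FPKM in control and from 0.00835 to 0.0261 FPKM with atorvastatin. Kynu encodes kynureninase, which acts next (ENSMUSG00000026866, chromosome 2, 43555329 to 43682715, plus strand), and ran from 0.00969 to 0.0285 and from 0.00442 to 0.0186 FPKM. Both overlapped between groups and lay far under the filter, where a difference was not detectable. Exact two-sided permutation p-values were 0.4 for Kmo and 0.2 for Kynu. Qprt, which makes the NAD precursor nicotinic acid mononucleotide from quinolinic acid, was at or below 0.0398 FPKM in every library and at 0 in 2 of them.

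Outside these steps, enzymes with other substrates too were well expressed. Got2, a mitochondrial aspartate aminotransferase that can also transaminate kynurenine, had 17.7 ± 1.3 and 19.9 ± 1.0 FPKM (log2 fold change 0.16, limma unadjusted p = 0.0472, adjusted p = 0.407). Nadsyn1, which encodes NAD synthetase, had 13.7 ± 0.9 and 12.6 ± 0.8 FPKM, and Nmnat1, of the nuclear step of NAD synthesis, had 3.47 ± 0.36 and 2.88 ± 0.76 FPKM. The kynurenine aminotransferase genes, named after their values were seen, differed widely. Kyat1 was at 9.05, 5.90 and 5.46 FPKM in control, against 5.93, 6.45 and 5.35 FPKM with atorvastatin (limma adjusted p = 0.793), Kyat3 was at 0.687 ± 0.039 and 0.691 ± 0.102 FPKM, and Aadat was listed at 0 in all 6 libraries.

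**Figure D2:**
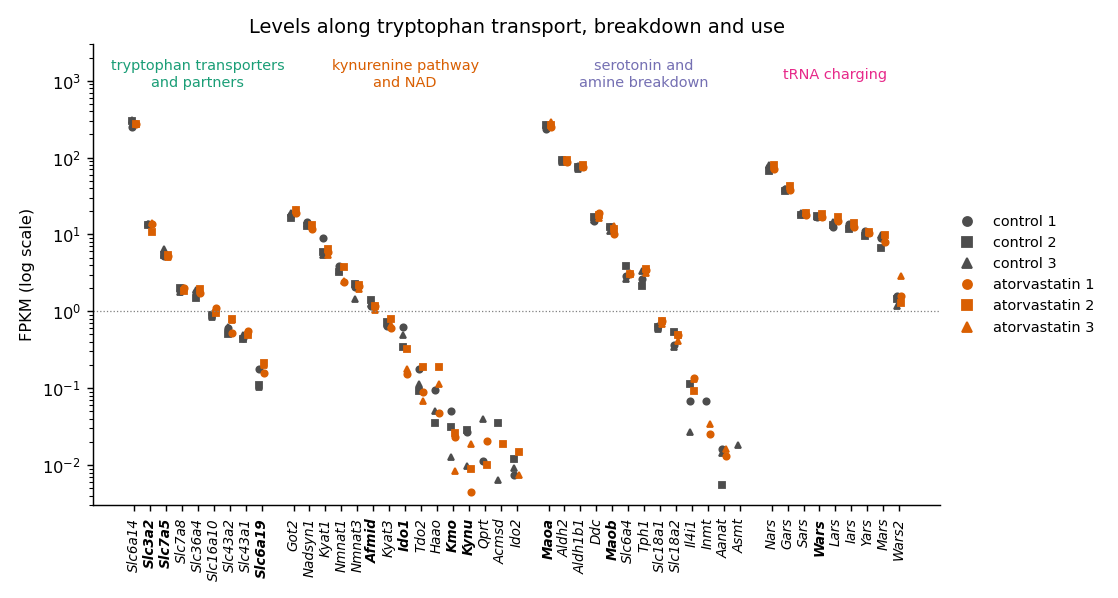
FPKM on a log axis of each gene of 4 fixed lists in each library, sorted by mean within a list, with the 10 genes of interest in bold, control in grey and atorvastatin in orange. Values of 0 cannot be drawn, so Cltrn, Aadat and Tph2 are not shown. The kynurenine list drops below 0.2 FPKM for 8 of its 16 genes, while Maoa and Slc6a14 exceed 200 FPKM.

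Of the monoamine oxidases, Maoa was the most abundant of the 10 genes, and Maob lay below Wars and beside Slc3a2. Maoa encodes the isoform that prefers serotonin (ENSMUSG00000025037, chromosome X, 16619698 to 16687818, plus strand). It was at 238, 268 and 262 FPKM in control, against 251, 266 and 294 FPKM with atorvastatin. The groups overlapped across most of their range, and atorvastatin replicate 3 was the highest. The log2 fold change was 0.08 ± 0.08 (95% interval -0.11 to 0.26, limma adjusted p = 0.772), which as a fold of FPKM + 1 is 1.05 with an interval of 0.928 to 1.20.

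Maob encodes the isoform that prefers phenylethylamine (ENSMUSG00000040147, chromosome X, 16709282 to 16817366, minus strand) and lies tail to tail with Maoa, 21463 bases apart. It was at 12.4, 12.6 and 11.0 FPKM in control, against 10, 11.7 and 13.0 FPKM with atorvastatin, and atorvastatin replicates 1 and 3 were the lowest and the highest of all. The log2 fold change was -0.05 ± 0.10 (95% interval -0.28 to 0.17, limma adjusted p = 0.884), and without atorvastatin replicate 1 it was 0.04. Maoa exceeded Maob by 19.1 to 25.1 times in FPKM in every library. The ratio was 19.1, 21.3 and 23.8 in control and 25.1, 22.7 and 22.6 with atorvastatin, so it overlapped between groups.

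The list of serotonin synthesis and amine breakdown, which holds both oxidases, had 7 tested genes of 14. It had 0 called higher or lower by limma and a median log2 fold change of 0.05. Beside 12.0% of all tested genes, 1 gene of the list had an unadjusted p under 0.05. That gene was Ddc, the decarboxylase that makes serotonin and tryptamine, at 15.0, 16.7 and 15.4 FPKM in control, against 18.8, 18.1 and 16.3 FPKM with atorvastatin (unadjusted p = 0.0467, limma adjusted p = 0.405). Tph1, the tryptophan hydroxylase of enterochromaffin cells, was at 2.63, 2.15 and 3.30 FPKM in control, against 3.42, 3.52 and 3.17 FPKM with atorvastatin (log2 fold change 0.26, 95% interval -0.01 to 0.52, limma adjusted p = 0.432). Both overlapped between groups. The 5 markers of enteroendocrine cells, Tph1 among them, summed to 81.6 to 90.7 FPKM in control and 110 to 132 FPKM with atorvastatin, and 4 of the 5 were higher in every atorvastatin library, beside 12.0% of all tested genes. Of the 5, limma called Gcg, the proglucagon gene, higher (log2 fold change 0.69, adjusted p = 0.0402), beside 0.155% of all tested genes. With no filter on low values its limma adjusted p was 0.231, so it was not called. The part of these cells in the values of Ddc and Tph1 was not tested, and in bulk RNA fewer or more cells of a type and less or more RNA per cell cannot be told apart. Slc6a4, the serotonin reuptake transporter, was at 3.14 ± 0.66 and 3.07 ± 0.07 FPKM. Aldh1b1, which oxidises aldehydes, was at 74.7 ± 3.3 and 77.5 ± 2.9 FPKM.

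Wars encodes the cytoplasmic synthetase that charges tryptophan onto its tRNA and is itself known as an interferon gamma target (ENSMUSG00000021266, chromosome 12, 108860030 to 108894174, minus strand). It was at 16.8, 17.2 and 16.6 FPKM in control, against 16.8, 18.3 and 16.8 FPKM with atorvastatin. The libraries were nearly level, with atorvastatin replicate 2 the highest. The log2 fold change was 0.03 ± 0.05 (95% interval -0.09 to 0.16, limma adjusted p = 0.88), the narrowest interval of the 6 tested genes, and the fold of FPKM + 1 was 1.02 (0.937 to 1.11). Without atorvastatin replicate 2 the log2 fold change was -0.01.

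All 9 genes of a list of aminoacyl-tRNA synthetases were tested, with 0 called by limma. At an unadjusted p under 0.05 there was 1, beside 12.0% of all tested genes. All 9 fold changes were positive, with a median of 0.05, where 57.3% of all tested genes were positive, with a median of 0.02. Of the 9, 7 were positive under median-ratio and upper-quartile scaling, and 8 under quantile normalization and with the abundant genes left out. Without control replicate 2, 5 were positive and 4 negative (median 0.01), and dropping atorvastatin replicate 2 gave the same split (median 0.00). Lars, the leucine enzyme, was the single gene of the list without overlap between groups, at 13.4 ± 1.2 and 15.8 ± 0.7 FPKM (log2 fold change 0.22, limma adjusted p = 0.282). Such a gap in this direction was found for 12.0% of all tested genes. Gars and Iars, the glycine and isoleucine enzymes, were at 38.1 ± 1.0 and 40.9 ± 2.5 FPKM and at 12.8 ± 0.9 and 13.4 ± 0.8 FPKM. Wars2, the mitochondrial tryptophan enzyme, was at 1.56, 1.44 and 1.17 FPKM in control, against 1.57, 1.30 and 2.87 FPKM with atorvastatin, so that its higher mean came from atorvastatin replicate 3.

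**Figure D3:**
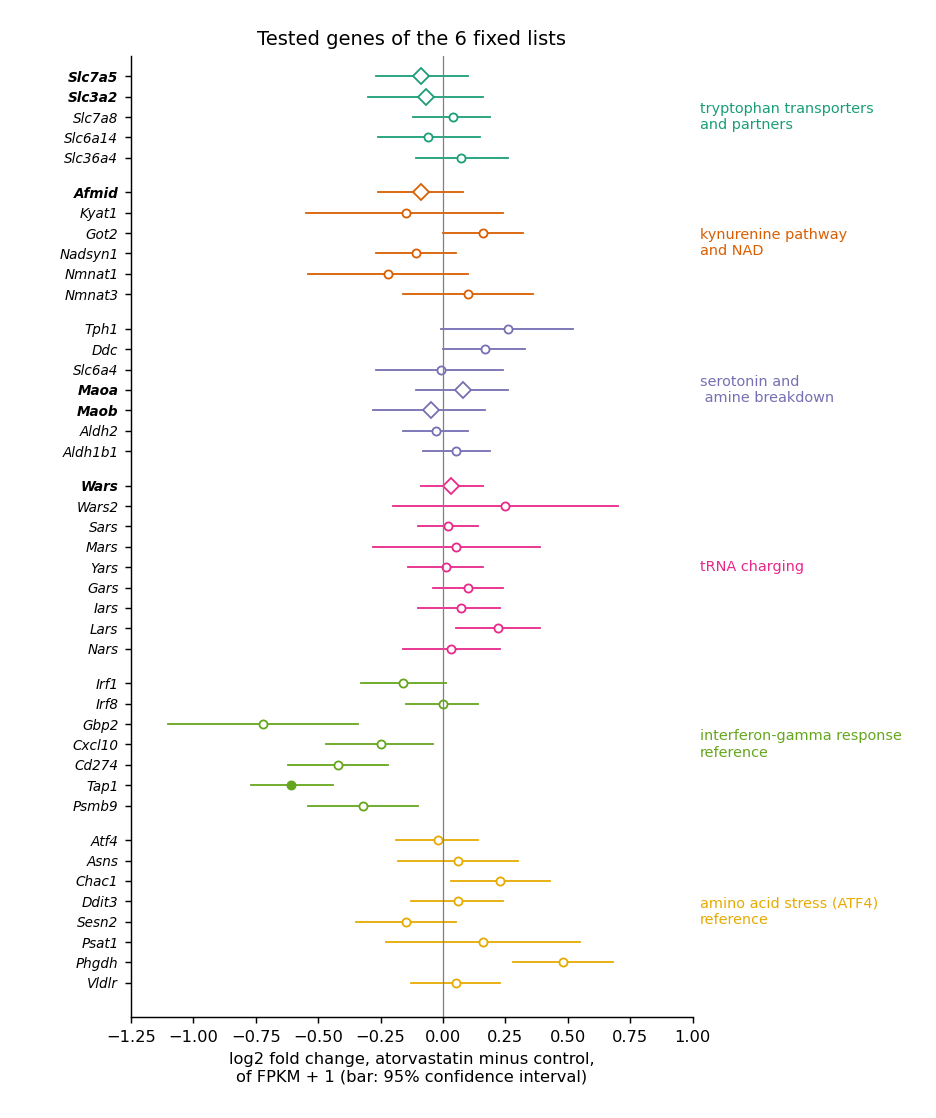
Log2 fold change of FPKM + 1, atorvastatin minus control, with its 95% confidence interval, for the 42 tested genes of the 6 fixed lists; diamonds and bold names mark the 6 tested genes of interest and filled symbols an adjusted p under 0.05. The intervals of those 6 all cross 0, and Tap1, which was lower, is the filled symbol.

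Ido1 and Wars are both known targets of interferon gamma, and another such target, Tap1, was called lower with atorvastatin. It came from a reference list of 9 genes, of which 7 were tested, 1 called lower and 0 called higher by limma, beside 0.249% of all tested genes called lower. All 7 fold changes were negative, with a median of -0.32, where 4967 of all 11644 tested genes had a negative one. Of the 7, 5 had an unadjusted p under 0.05, beside 12.0% of all tested genes. Irf8 was nearly level, at 7.99 ± 0.19 and 7.97 ± 0.57 FPKM, and without control replicate 1 or atorvastatin replicate 1 the count of negative values was 6 of 7. Tap1, a peptide transporter of antigen presentation, was at 5.69, 5.32 and 4.97 FPKM in control, against 2.93, 3.13 and 3.39 FPKM with atorvastatin (log2 fold change -0.61 ± 0.07, limma adjusted p = 0.0239), without overlap. With 1 library left out at a time, Tap1 kept its call without control replicate 3 and lost it without each of the other 5, and its adjusted p over all alternatives ran from 0.0218 to 0.16. Among those that did not pass, Gbp2 was at 4.77 ± 1.13 and 2.47 ± 0.54 FPKM and Cd274, which encodes PD-L1, at 1.64 ± 0.24 and 0.974 ± 0.037 FPKM. Psmb9, an immunoproteasome subunit, was at 2.94 ± 0.35 and 2.16 ± 0.25 FPKM. Irf1 was at 34.4 ± 3.2 and 30.6 ± 0.7 FPKM (limma adjusted p = 0.441). The values of Ido1 lay on the side of Tap1. The interval of Wars, -0.09 to 0.16, did not overlap those of Tap1 (-0.77 to -0.44), Gbp2 (-1.10 to -0.34), Cd274 (-0.62 to -0.22) and Psmb9 (-0.54 to -0.10). It overlapped those of Irf1 (-0.33 to 0.01), Irf8 (-0.15 to 0.14) and Cxcl10 (-0.47 to -0.04). The difference between these genes was not tested.

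Ido1 is also made by dendritic cells and macrophages, and summed leukocyte markers were lower in the same libraries. The 8 macrophage and dendritic markers summed to 3.68 to 7.06 FPKM in control and 2.47 to 2.91 FPKM with atorvastatin. Of the 8, 5 were lower in every atorvastatin library, beside 6.05% of tested genes and 6.40% of those under the filter and above 0 in every library. The latter share does not cover Adgre1 and Clec9a, which were among the 5 and at 0 in 1 and 3 libraries. Of the 2 tested markers, Cd68 was at 1.23 ± 0.22 and 1.16 ± 0.11 FPKM and Lyz2 at 2.94 ± 1.17 and 1.15 ± 0.31 FPKM, and limma called neither. Of these 8, 6 stayed below 1 FPKM in every library. The dendritic cell marker Xcr1 stayed at or below 0.0183 FPKM, and Clec9a was at 0 in the 3 atorvastatin libraries. The 7 T and NK cell markers summed to 11.0 to 18.2 and 7.83 to 9.97 FPKM. The 6 B and plasma cell markers summed to 5.06 to 11.1 and 2.49 to 3.17 FPKM. Ptprc, the gene of the leukocyte surface phosphatase CD45, stood at 1.81, 1.98 and 1.15 FPKM in control, against 0.688, 0.824 and 1.17 FPKM with atorvastatin. The part of these cells in the level of Ido1 was not tested.

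**Figure D4:**
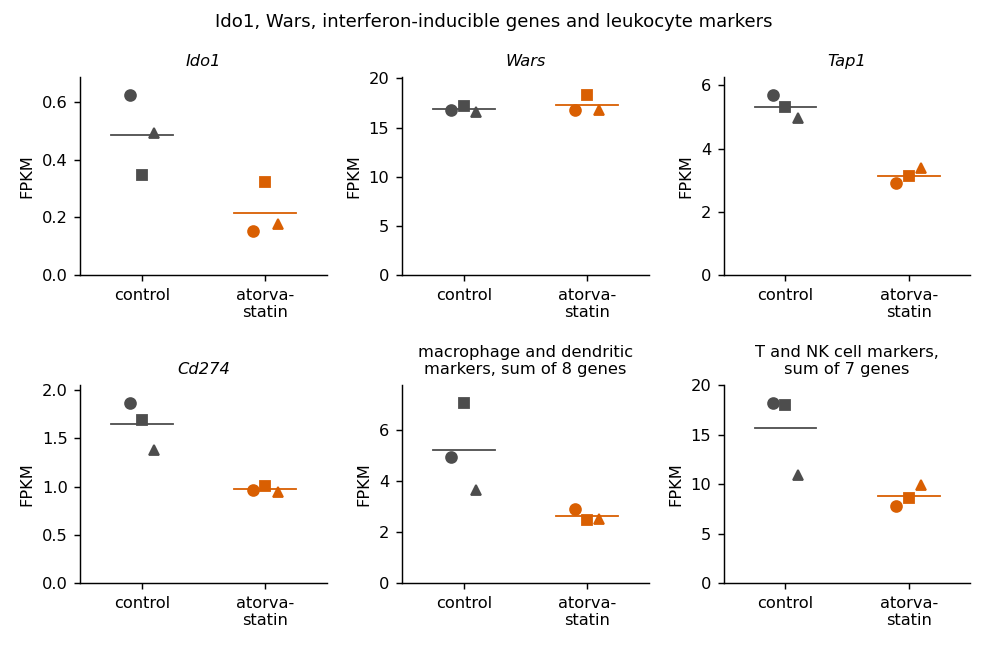
FPKM of Ido1, Wars, Tap1 and Cd274 and the summed FPKM of 8 macrophage and dendritic and 7 T and NK cell markers in each library, with control in grey, atorvastatin in orange and a bar at each group mean; circles, squares and triangles are replicates 1, 2 and 3, and every axis starts at 0. The groups lie apart in every panel but that of Wars, which stays between 16.6 and 18.3 FPKM. Single genes lay apart in either direction in 18.1% of tested genes and 14.1% of those under the filter and above 0 in every library. Of the 7 tested genes of the interferon gamma list, 5 lay apart, while Irf8 and Cxcl10, not drawn, overlapped.

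Slc7a5, Slc3a2 and Wars are also known targets of ATF4, the transcription factor induced when amino acids run short. In a reference list of 10 ATF4-related genes, limma called 0 of 8 tested genes. Of the 8, 2 passed an unadjusted p under 0.05, beside 12.0% of all tested genes. Their fold changes were 6 positive and 2 negative, with a median of 0.06, where 57.3% of all tested genes were positive. Atf4 itself was at 196 ± 15 and 193 ± 7 FPKM and Asns, asparagine synthetase, at 7.57 ± 1.21 and 7.90 ± 0.36 FPKM. Phgdh, the entry enzyme of serine synthesis, was at 2.64, 2.77 and 3.35 FPKM in control, against 4.21, 4.83 and 4.37 FPKM with atorvastatin (log2 fold change 0.48, 95% interval 0.28 to 0.68, limma adjusted p = 0.0787). Its groups lay apart, as in 12.0% of tested genes in this direction. Over 15 alternatives its limma adjusted p ran from 0.0457 to 0.299, and it was called in 1, without control replicate 3. Chac1, which degrades glutathione, was at 0.923 ± 0.160 and 1.25 ± 0.09 FPKM. Sesn2, a leucine-sensing inhibitor of mTORC1, was at 4.63 ± 0.07 and 4.09 ± 0.55 FPKM, and Psat1, which follows Phgdh in serine synthesis, at 1.31 ± 0.49 and 1.55 ± 0.295 FPKM.

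Over the 4 lists of tryptophan transport, kynurenine, serotonin and tRNA charging, 39 genes lay beyond the 10. Of these 21 were tested, limma called 0, and 3 passed an unadjusted p under 0.05 (Got2, Ddc and Lars), beside 12.0% of all tested genes. Their median log2 fold change was 0.05, beside 0.02 over all tested genes. By pattern over the 6 libraries, the tested genes most like Afmid, the gene with the smallest limma p among the 6 that passed the filter, were Lrrc66, Arrdc4, Ccng2, Tnfsf13 and Nudt8, with Pearson r of log2(FPKM + 1) from 0.9797 to 0.9910. Those most like Wars were Atp8b1, Tyms, Tor3a, Nkrf and Plpp5, with r from 0.9765 to 0.9963. Values this high are the largest of 10421 genes over only 6 libraries.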

How the data were processed

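The deposited values are FPKM, made by the authors for 52550 Ensembl gene identifiers, 1 value per gene and library. FastQC 0.11.2, Bowtie without a version, and mm10 as the build are named per the submitters' processing notes. The quantification tool, annotation, strand setting and treatment of multiply mapping reads are not given in the sources used here. Gene symbols matched 99.72% of identifiers, and coordinates came from GENCODE release M21 (GRCm38). The 11644 genes that reached 1 FPKM in 3 or more libraries were compared on log2(FPKM + 1) with limma 3.58.1 in R 4.3.3, using trended and robust empirical Bayes, two-sided, with Benjamini-Hochberg adjustment over all tested genes. Fold changes carry their SE after the ± sign, and FPKM means the SD of 3 libraries. Genes below the filter were described by their values and an exact permutation test. The fit was tested on simulated data with known changes. These data had the same log2 spread for every gene, so they could not test the trended and robust options.

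The 10 genes and all lists were chosen with earlier results of these data known, and 2 genes were taken out of the lists and are not reported here. Other list members without a value in the text enter the counts. Named beyond the 10 were genes of the fixed lists past the threshold, up to 4 per list with the smallest unadjusted p, and a preset group (Tph1, Ddc, Slc6a4, Tdo2, Ido2, Qprt, Wars2, Slc7a8, Slc16a10, Cltrn, Irf1, Asns, Atf4, Ptprc and Epcam). Tk1, Gm20708, Irf8, Cxcl10, Kyat1, Kyat3, Aadat, Tph2 and the markers were named beside the results they bear on, after their values were seen. Alternatives covered the pseudocount, the filter, the scaling, limma's options, a replicate block and leaving out each library.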

Additional observations from a re-analysis of the deposited data

How the results depend on the processing

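The count of tryptophan genes called stayed at 0 under all 16 alternatives, and with no filter on low values, where all 10 genes are tested, 1 (Ido1) had an unadjusted p under 0.05. The count over the 6 lists, 1 as reported, was 0 with a filter of 5 FPKM, 0 with no filter and 0 to 2 with a library left out. The count over all genes, 47 as reported, was 2 with no filter and 2 to 67 with a library left out: 2, 30 and 67 on dropping control replicates 1, 2 and 3, and 13, 61 and 17 on dropping atorvastatin replicates 1, 2 and 3. With the replicate block, 1 gene was called over all genes and 0 in the lists. Same-numbered libraries did not deviate together (correlations of their deviations of -0.139, -0.106 and 0.0136), so the numbers were not treated as pairs. With a library left out, signs turned, in no case past the threshold, for Slc3a2 (-0.14 to 0.04), Maob (-0.14 to 0.04), Wars (-0.01 to 0.05), Slc6a4 (-0.10 to 0.11), Atf4 (-0.09 to 0.02), Asns (-0.04 to 0.16) and Psat1 (-0.01 to 0.30). Slc7a5, Afmid and Maoa kept their signs in all alternatives that could be fitted, but moved with single libraries: Slc7a5 ran from -0.14 to -0.01 (the latter without control replicate 3), Maoa from 0.01 (without atorvastatin replicate 3) to 0.13, with 0.02 on dropping control replicate 1, and Afmid from -0.12 to -0.05 (without control replicate 2). The log2 difference of Ido1 was -0.288, -0.459 at a pseudocount of 0.5 and -0.899 at 0.1. Levels below 1 FPKM limit Ido1, Slc6a19, Kmo and Kynu, and the depth behind them is unknown.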
